A study of Mus musculus with 22 samples.

Results

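The 33 genes described here make up a fixed list of the interferon response and of class I antigen presentation, followed in mouse embryonic forelimbs with and without the chondroitin sulfate synthase Chsy1. Members were found on the arrays by gene name, by an older or newer symbol, or by RefSeq accession. A probe matched for 32 of the 33, with 53 probes in all, and no probe matched Xaf1. Of these, 30 genes had a probe whose forelimb signal stood well above background on at least 9 arrays and were tested, within a table of 18637 genes and unnamed probes. Ifit1 was above background on 1 array only, knockout 3, and of the 2 probes of Mx1 only 1 was, on knockout 6, so neither was tested.

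The series compares 9 wild-type and 13 Chsy-1 knockout forelimb samples, all of strain 129 and of age 13.5 day. How the Chsy-1 allele was made, and whether a sample is 1 embryo or a pool, is not given in the sources used here, so the p-values reflect only how much these samples varied, which may be technical. Each array carried forelimb RNA in the Cy5 channel beside a common Cy3 reference, universal mouse RNA. Each value below is a log2 ratio of forelimb to that reference unless another unit is named, and dyes were not swapped.

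Interferons bind cell surface receptors whose Janus kinases activate transcription factors, among them STAT2. A complex that holds STAT2 and IRF9 binds the interferon-stimulated response element (ISRE) in promoters. The genes switched on this way encode sensors of foreign RNA, antiviral proteins, brakes such as Usp18, and the proteins that cut, carry and display peptides on class I molecules. Many are also transcribed at a low level without infection.

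The promoters were searched for the ISRE as a description. Members were listed as interferon response genes, which are switched on through this element, so a raised share follows in part from the choice of list. In RefSeq's GRCm38.p6 table, 27 members had a window running from 250 bases before to 50 bases after the annotated start, and the ISRE letters, GAAA followed after any 2 bases by GAAA, were searched there on both strands. They were found in 13 of the 27 (48.1%), against 3.99% of 27025 genes with such a window. By role they stood in 3 of 4 sensors, 1 of 4 transcription factors, 8 of 13 effectors and 1 of 6 antigen presentation genes, that gene being B2m. These matches describe the letters only. Windows of 6 members follow, read 5′ to 3′ on the strand of the gene, with each ISRE match and any overlap of matches in capitals. On the opposite strand the same element reads TTTC, any 2 bases, TTTC. They are shown because all their matches lie before the annotated start, in effectors, a transcription factor and an antigen presentation gene, and because they differ in how many copies lie close together. The matches of the 3 sensors began after the start, at position 2 in Ddx58, 18 in Eif2ak2 and 32 in Ifih1, and are not printed.
Isg15: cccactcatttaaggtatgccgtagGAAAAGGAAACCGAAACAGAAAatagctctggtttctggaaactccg
Ifit3: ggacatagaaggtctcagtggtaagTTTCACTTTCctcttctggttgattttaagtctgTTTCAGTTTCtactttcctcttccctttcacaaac
Bst2: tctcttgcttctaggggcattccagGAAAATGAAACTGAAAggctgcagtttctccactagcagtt
Gbp2: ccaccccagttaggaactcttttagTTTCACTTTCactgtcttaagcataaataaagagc
Stat2: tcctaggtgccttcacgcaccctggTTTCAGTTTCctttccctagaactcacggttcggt
B2m: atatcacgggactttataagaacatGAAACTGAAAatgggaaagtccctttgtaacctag
On GRCm38.p6 these lie at chr4:156200850-156200921 (minus strand) for Isg15, chr19:34583348-34583441 (plus) for Ifit3, chr8:71537562-71537627 (minus) for Bst2, chr3:142620579-142620638 (plus) for Gbp2, chr10:128270251-128270310 (plus) for Stat2 and chr2:122147523-122147582 (plus) for B2m. Isg15 held 3 overlapping matches, Ifit3 held 2 separate ones, Bst2 held 2 overlapping ones and the others held 1 each. The first match began at position -78 from the annotated start in Isg15, -156 in Ifit3, -130 in Bst2, -59 in Gbp2, -222 in Stat2 and -139 in B2m.

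Some arrays stood apart, and on wild-type 1 and knockout 12 the members' values depended on the background correction. On wild-type 1, 9 of 45018 spots had a local background above 200 units, reaching 15409 in Cy5 and 8149 in Cy3, and on knockout 12 there were 5, reaching 1436 and 6454.5. On the other 20 arrays the highest local background was 121 units in Cy5 and 89 in Cy3. No spot of a member was among them. The planned background correction was normexp, which fits 1 distribution per array and channel. It then estimated a Cy5 background mean of -403.5 on wild-type 1 and -30.92 on knockout 12, against -14.26 to -6.996 on the other 20. The Cy3 background mean was -151.6 on wild-type 1 and -109.9 on knockout 12, against -6.591 to 1.679 on the other 20. Log2 ratios of all genes were compressed on both, with a slope on the mean of all arrays of 0.699 on wild-type 1 and 0.879 on knockout 12, against at least 0.9665 on the other arrays. Those few backgrounds were then set to the median of their array, which is called the repaired background here and was chosen after seeing the data. With it the Cy5 and Cy3 estimates were -13.25 and -1.805 on wild-type 1 and -8.549 and 0.1016 on knockout 12. The slopes were 0.995 on wild-type 1 and 1.025 on knockout 12. Member values on the other 20 arrays were the same under both corrections.

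Most members lay well below the reference. Of the 30 tested, 29 had a mean log2 ratio below 0 and 18 below -2, against 42.91% and 3.761% of all genes tested. Under the planned correction wild-type 1 was the highest of the 22 arrays for 17 of 30 members (13.0% of all genes), and the members averaged 0.655 above their own mean over the arrays. With the repaired background it was the highest for 0 of 30 (5.09% of all genes), and the members averaged 0.0065. On knockout 12 the members averaged 0.304 above their mean under the planned correction and 0.113 with the repaired background. The members' differences are therefore given under both corrections, while ranges, means and SDs over arrays are those with the repaired background unless the planned one is named.

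**Figure D1:**
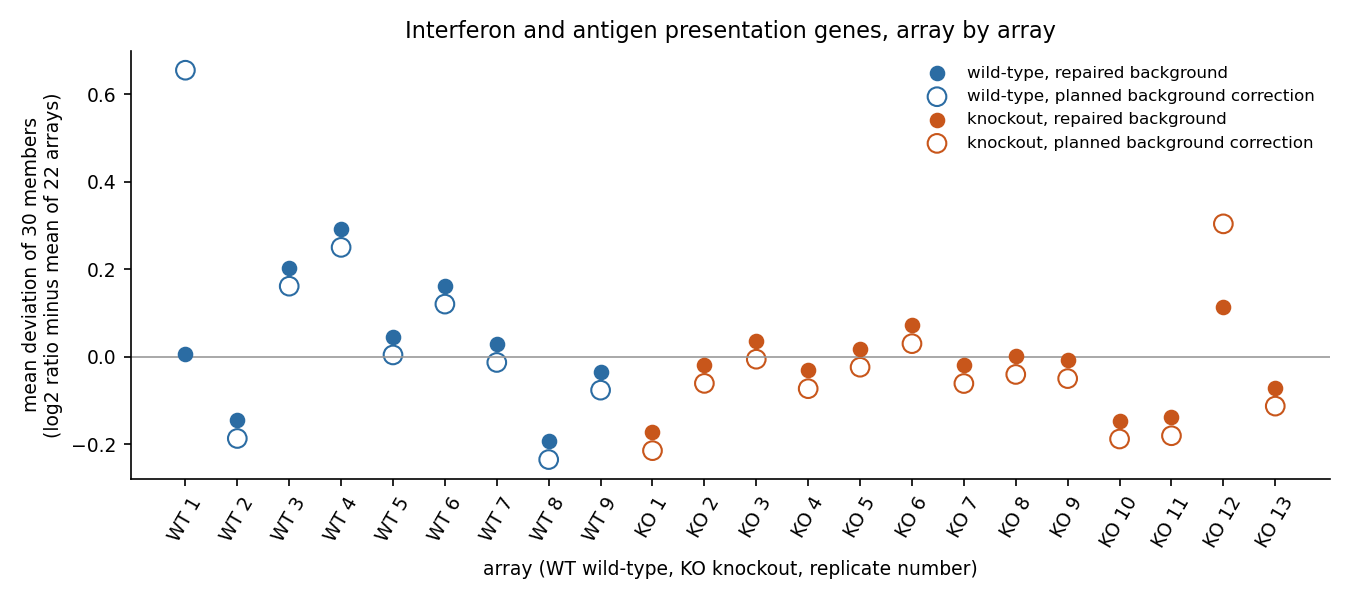
Mean deviation of the 30 tested members from their own mean over 22 arrays (y axis, log2 units) for each array (x axis), with open circles for the planned and filled circles for the repaired background. Wild-type 1 falls from 0.655 to 0.0065, wild-type 4 is then the highest at 0.29, and wild-type 8 is the lowest at -0.19.

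Another array stood apart in the targeted gene. The Chsy1 probe read between 1.28 and 2.02 in the 9 wild-type arrays and between -5.12 and -4.05 in 12 knockout arrays, but 0.15 in the array labelled knockout 1. That array is lower than every wild-type array and far above the other knockout arrays. It was kept with its label, and the members' median difference over all arrays is also given without it. The limb marker Hoxd13 lay well above the reference with the repaired background, its mean log2 ratio being 6.56 ± 0.14 (SD, n = 9) in the wild-type arrays and 6.71 ± 0.24 (SD, n = 13) in the knockout arrays. Cy5 signal stood well above background in 27214 to 30599 of the 43379 spots that are not controls.

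Across the members, the loss of Chsy-1 went with small differences that mostly pointed down and did not pass the test. That direction was not seen within slide position 2, the 1 position that held both genotypes. There the members' median difference was 0.035 and 11 of 30 were lower in knockout (57.8% of all genes). Position 2 held only 3 arrays of each genotype. They include the array labelled knockout 1, and wild-type 8, the lowest array for the members. The position 2 comparison was not made without the array labelled knockout 1. Under the planned correction 0 of 30 members were called by limma at an adjusted p under 0.05, with 0.0215% of all genes called, and 2 of 30 had an unadjusted p under 0.05 (5.33% of all genes). Adjusted p-values of the members ran from 0.92 to 0.99. With the repaired background 0 of 30 were called (0.0322% of all genes), 1 of 30 had an unadjusted p under 0.05 (5.85% of all genes), and adjusted p-values ran from 0.80 to 0.998. Lower means in knockout were seen for 27 of 30 members under the planned correction (53.4% of all genes) and for 25 of 30 with the repaired background (54.4%), and 25 were lower under both. The median difference, knockout minus wild type, was -0.14 (all genes -0.0072) and then -0.084 (all genes -0.0081). The size of the difference was larger under the planned correction for 28 of 30 members. For no member were the groups apart without overlap, which 0.00537% of all genes were.

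**Figure D2:**
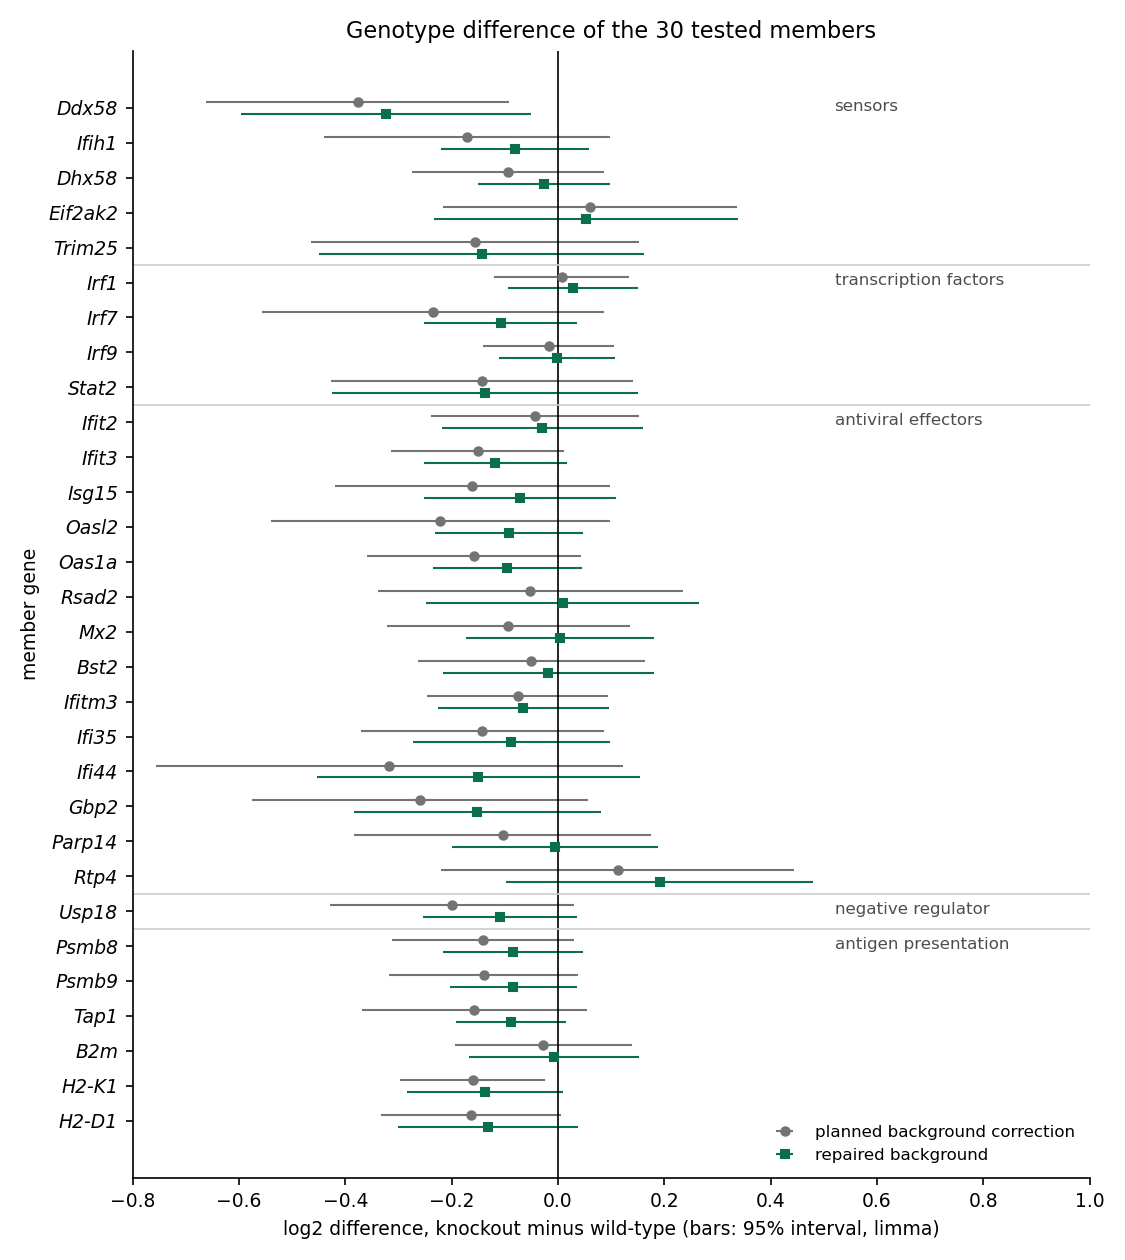
Log2 difference, knockout minus wild-type (x axis), of the 30 tested members (y axis, ordered by role), with 95% intervals from limma under the planned (grey circles) and repaired (green squares) background. With the repaired background 29 of 30 intervals include 0, Ddx58 being the exception at -0.32.

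The sensors detect foreign RNA. Ddx58 encodes RIG-I, which recognises viral RNA ends and signals through Mavs, and its difference was the one whose interval lay below 0 under both corrections. Wild-type arrays ran from -1.73 through a median of -1.52 to -0.63, and knockout arrays from -2.17 through -1.82 to -0.91. In 11 of 13 knockout arrays the value lay below the wild-type median, but wild-type 3 and knockout 5 stood high in their groups and the ranges overlapped widely. The difference was -0.38 (95% interval -0.66 to -0.093, limma adjusted p = 0.92) under the planned correction and -0.32 (-0.60 to -0.051, limma adjusted p = 0.80) with the repaired background. Leaving out wild-type 3 took the latter to -0.23, and leaving out knockout 5 took it to -0.39. The 2 other tested Ddx58 probes, dimmer ones, differed by -0.068 and -0.078 with the repaired background, so the size seen by the brightest probe was not shared by them.

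Trim25, the ubiquitin ligase that activates RIG-I, had bright probe signal (median 3987 Cy5 units) and the largest within-group spread of any member with the repaired background. Its wild-type arrays ran from -1.84 through -1.44 to -0.69 and its knockout arrays from -2.06 through -1.43 to -0.91. The medians were close and the ranges overlapped widely, but knockout 8, 9, 10 and 11 lay below the lowest wild-type array. The difference was -0.16 (-0.46 to 0.15) under the planned correction and -0.14 (-0.45 to 0.16) with the repaired background, and a dimmer second probe gave -0.0085. Ifih1, which encodes the long double-stranded RNA sensor MDA5, had repaired means of -1.77 ± 0.19 (SD, n = 9) in wild-type arrays and -1.85 ± 0.13 (SD, n = 13) in knockout arrays. Its difference was -0.17 under the planned correction and -0.081 with the repaired one. Dhx58, whose product LGP2 modulates the other RNA helicases of this family, differed by -0.094 and -0.027, with repaired means of -1.20 ± 0.14 (SD, n = 9) and -1.23 ± 0.13 (SD, n = 13).

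Eif2ak2 encodes PKR, the RNA-activated kinase that halts translation. It was the only tested member with a mean above the reference, at 0.22 ± 0.34 (SD, n = 9) for wild-type arrays and 0.27 ± 0.34 (SD, n = 13) for knockout arrays with the repaired background. Its difference of 0.060 (-0.22 to 0.34) under the planned correction and 0.053 (-0.23 to 0.34) with the repaired one was small beside that spread.

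The transcription factors carry the signal to the promoters. Irf7, which drives the amplifying wave of type I interferon, ranged in wild type from -3.04 through -2.80 to -2.44 and in knockout from -3.04 through -2.92 to -2.70. The upper ends of the wild-type range were wild-type 3 and wild-type 4, and the remaining wild-type arrays, up to -2.77, overlapped the knockout arrays. Its difference was -0.23 (-0.56 to 0.087) under the planned correction, where wild-type 1 read -1.24, and -0.11 (-0.25 to 0.035) with the repaired background. Stat2 had repaired means of -0.68 ± 0.32 (SD, n = 9) and -0.82 ± 0.36 (SD, n = 13), and a difference of -0.14 under both corrections. Wild-type 3 and knockout 5, the arrays that were high for Ddx58, were also the highest of their groups for Stat2, at -0.028 and 0.11.

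Irf9, the DNA-binding partner of STAT2, had nearly equal means in the groups, at -0.998 ± 0.12 (SD, n = 9) and -0.9998 ± 0.10 (SD, n = 13) with the repaired background. Its difference was -0.017 (-0.14 to 0.10) under the planned correction and -0.0018 (-0.11 to 0.11) with the repaired one. Irf1, a factor induced by interferon gamma that acts on class I genes, had repaired means of -2.53 ± 0.14 (SD, n = 9) and -2.50 ± 0.12 (SD, n = 13). Its difference was 0.0072 under the planned correction and 0.028 with the repaired one, and its dimmer second probe differed by -0.084.

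The antiviral effectors act on virus RNA, entry or release. Of 14 tested, 13 had a lower mean in knockout under the planned correction and 11 with the repaired one, with median differences of -0.12 and -0.068. Ifit3, which belongs to a family binding foreign 5′ RNA ends, showed wild-type values from -1.64 through -1.265 to -1.003 and knockout values from -1.57 through -1.39 to -1.25. The knockout arrays lay within the wild-type range and stopped short of its upper end, with knockout 4 and knockout 5 above the wild-type median. Its difference was -0.15 (-0.31 to 0.012, limma adjusted p = 0.92) under the planned correction and -0.12 (-0.25 to 0.016, limma adjusted p = 0.89) with the repaired one. Its relative Ifit2 differed by -0.043 and -0.029, with repaired means of -0.49 ± 0.20 (SD, n = 9) and -0.52 ± 0.23 (SD, n = 13).

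Oasl2 and Oas1a belong to the oligoadenylate synthetase family, whose active members trigger RNA decay. Oasl2 had wild-type values from -3.44 through -3.14 to -2.77 and knockout values from -3.39 through -3.17 to -3.08, with the 3 highest arrays all wild type. Its difference was -0.22 (-0.54 to 0.097) under the planned correction, where wild-type 1 read -1.57, and -0.092 (-0.23 to 0.047) with the repaired one. Oas1a differed by -0.16 and -0.095, with repaired means of -2.47 ± 0.21 (SD, n = 9) and -2.56 ± 0.10 (SD, n = 13). Isg15, a ubiquitin-like modifier, differed by -0.16 and -0.071, with repaired means of -3.67 ± 0.26 (SD, n = 9) and -3.74 ± 0.17 (SD, n = 13). The file places its probe on chromosome 17 of mm8 while RefSeq has the gene on chromosome 4, so what this probe reports is uncertain.

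Ifi44, an interferon-induced gene linked to antiviral defence, had the largest within-group SD of the members under the planned correction, 0.53. Its repaired wild-type values ran from -4.07 through -3.46 to -2.81 and its knockout values from -4.02 through -3.66 to -2.91, so the groups covered the same range. The difference was -0.32 (-0.76 to 0.12) under the planned correction and -0.15 (-0.45 to 0.15) with the repaired one. Its Cy5 signal was dim, with a median of 94.1 units against a median background near 56. Other members were little brighter, among them Oasl2 at 107.2, Irf7 at 113.2, Ifih1 at 114.7, Tap1 at 129.2, Gbp2 at 134.6 and Mx2 at 142.2 units. Gbp2, a GTPase that attacks the compartments of intracellular pathogens, differed by -0.26 and -0.15, with repaired means of -2.48 ± 0.37 (SD, n = 9) and -2.63 ± 0.19 (SD, n = 13).

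Rtp4, which encodes a receptor transporter protein induced by interferon, was higher in knockout on average under both corrections. Its wild-type values ran from -4.15 through -3.92 to -3.62 and its knockout values from -4.22 through -3.82 to -2.95. Knockout 3 and knockout 12 were the highest arrays, at -3.07 and -2.95, and 5 knockout arrays lay above the highest wild-type array. Knockout 5, 1 and 11 lay just below the lowest wild-type array, at -4.22, -4.19 and -4.16, and the others lay within the wild-type range. The difference was 0.11 (-0.22 to 0.44) under the planned correction and 0.19 (-0.098 to 0.48, limma adjusted p = 0.92) with the repaired one. Without knockout 12 the latter was 0.13.

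Ifitm3, a membrane protein that blocks virus entry, gave one of the bright probes, at a median of 4379 Cy5 units. Its wild-type values ran from -2.58 through -2.30 to -1.86 and its knockout values from -2.47 through -2.36 to -2.10, the knockout arrays being the more tightly grouped. The difference was -0.076 (-0.25 to 0.094) under the planned correction and -0.065 (-0.23 to 0.096) with the repaired one. Bst2, which encodes tetherin and holds virus particles on the cell surface, lay far below the reference in both groups, at -4.13 ± 0.22 (SD, n = 9) and -4.15 ± 0.24 (SD, n = 13) with the repaired background, and differed by -0.051 and -0.018. Ifi35, an interferon-induced leucine zipper protein, differed by -0.14 and -0.088, with repaired means of -2.47 ± 0.27 (SD, n = 9) and -2.56 ± 0.16 (SD, n = 13).

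For 3 more effectors the difference was close to 0 with the repaired background, and for 2 of them its sign turned. Rsad2, encoding viperin, an enzyme that makes a chain-terminating nucleotide, differed by -0.052 and then 0.0088, with repaired means of -1.47 ± 0.31 (SD, n = 9) and -1.46 ± 0.30 (SD, n = 13). Mx2, a dynamin-like antiviral GTPase, differed by -0.093 and then 0.0036, with repaired means of -1.37 ± 0.24 (SD, n = 9) and -1.36 ± 0.18 (SD, n = 13). Parp14, an ADP-ribosyltransferase, differed by -0.10 and then -0.0057, with repaired means of -2.73 ± 0.18 (SD, n = 9) and -2.74 ± 0.25 (SD, n = 13).

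Usp18 removes ISG15 from proteins and blocks the type I interferon receptor, and it is the brake among the members. Its mean was -4.00 ± 0.20 (SD, n = 9) for wild-type arrays and -4.11 ± 0.13 (SD, n = 13) for knockout arrays with the repaired background. The difference was -0.20 (-0.43 to 0.030) under the planned correction and -0.11 (-0.25 to 0.036) with the repaired one, with overlapping ranges.

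All 6 antigen presentation members had a lower mean in knockout under both corrections, with median differences of -0.15 and -0.087. By limma 0 of 6 were called (0.0215% of all genes under the planned correction and 0.0322% with the repaired background). Within slide position 2, however, 4 of the 6 were higher in knockout, Psmb8 by 0.0026, Psmb9 by 0.035, Tap1 by 0.035 and B2m by 0.067. The array labelled knockout 1 is among the few knockout arrays at that position. H2-K1 encodes a class I heavy chain, the molecule that displays peptides to T cells. Its wild-type values ran from -4.11 through -3.86 to -3.43 and its knockout values from -4.14 through -3.95 to -3.83. The 4 highest arrays were all wild type, and the other wild-type arrays lay among the knockout ones. The difference was -0.16 (-0.30 to -0.024, limma adjusted p = 0.92) under the planned correction and -0.14 (-0.28 to 0.010, limma adjusted p = 0.88) with the repaired one, and the 2 other H2-K1 probes gave -0.095 and -0.17. H2-D1, a second class I heavy chain, was read by a probe that lists accessions of several class I genes, so which of them it reports is uncertain. Its wild-type values ran from -4.53 through -4.34 to -3.76 and its knockout values from -4.76 through -4.36 to -4.11. Wild-type 4 was again the highest array, and the medians of the groups were close. The difference was -0.16 (-0.33 to 0.0054) and then -0.13 (-0.30 to 0.038). Without wild-type 4 the repaired difference was -0.088 for H2-K1 and -0.070 for H2-D1.

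B2m encodes beta-2 microglobulin, the light chain that class I molecules need to reach the surface. Its wild-type values ran from -3.79 through -3.55 to -3.09 and its knockout values from -3.78 through -3.62 to -3.24, so the groups covered nearly the same range. The difference was -0.028 (-0.19 to 0.14) under the planned correction and -0.0081 (-0.17 to 0.15) with the repaired one. The dimmer B2m probes gave -0.055 and -0.22 under the planned correction, and -0.0089 and -0.099 with the repaired one. Psmb8 and Psmb9, the immunoproteasome subunits that shape the peptides, differed by -0.14 and -0.14 under the planned correction and by -0.084 and -0.084 with the repaired one. A second Psmb8 probe gave -0.19 (-0.37 to -0.011) under the planned correction and -0.13 (-0.28 to 0.020) with the repaired one. Repaired means of Psmb8 were -3.69 ± 0.21 (SD, n = 9) and -3.77 ± 0.077 (SD, n = 13), and those of Psmb9 were -3.36 ± 0.17 (SD, n = 9) and -3.45 ± 0.084 (SD, n = 13). Tap1, a subunit of the pump that carries peptides into the endoplasmic reticulum, differed by -0.16 (-0.37 to 0.054) and then by -0.089 (-0.19 to 0.015). Its repaired means were -1.69 ± 0.12 (SD, n = 9) and -1.77 ± 0.094 (SD, n = 13), the narrowest pooled spread of the members. The Tap1 probe was dim, at a median of 129.2 Cy5 units.

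**Figure D3:**
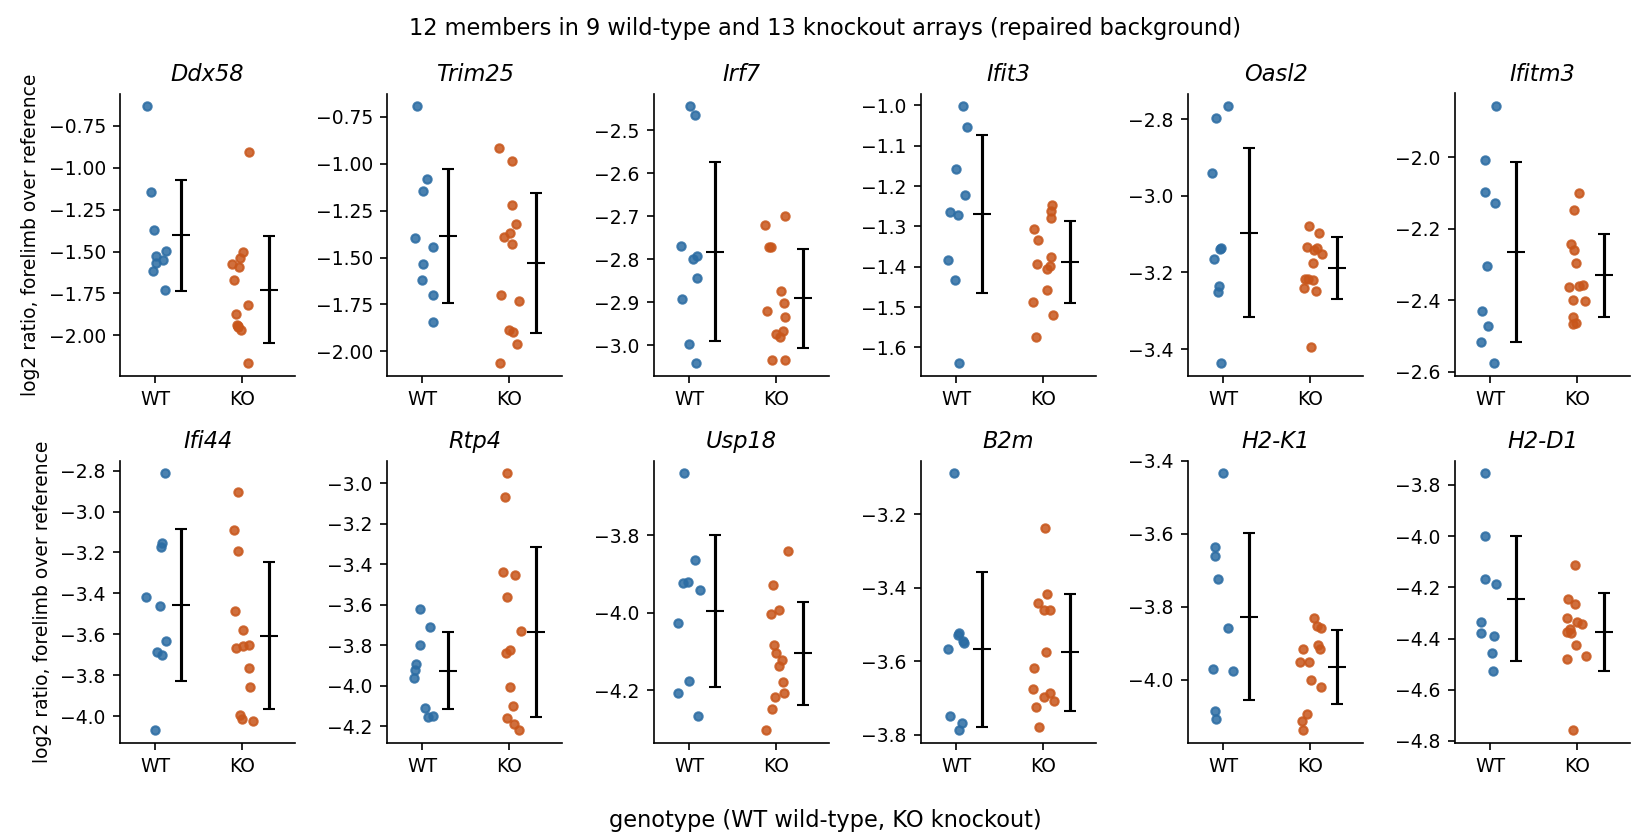
Log2 ratio of forelimb to reference (y axis, a separate scale for each gene) of 12 members in 9 wild-type and 13 knockout arrays with the repaired background, with 1 point per array and the mean with its SD beside each group. The ranges overlap for every gene shown. Knockout points of Oasl2 and Ifit3 sit within the wild-type range and stop short of its upper end, whereas for H2-K1 the lowest is a knockout point at -4.14.

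Spread between arrays was described for each group. With the repaired background the median within-group SD of the members was 0.19, close to the 0.18 of all genes, whereas under the planned correction it was 0.27 against 0.19. In wild type the members' median SD was 0.22 (all genes 0.19) and in knockout 0.16 (all genes 0.16). The wild-type SD exceeded the knockout SD for 23 of 30 members and for 68.7% of all genes (25 of 30 and 76.0% under the planned correction). All 6 antigen presentation members had the larger SD in wild type, with medians of 0.21 and 0.098. Among the 14 effectors, 10 had the larger SD in wild type. Rtp4 went furthest the other way, with an SD of 0.19 in wild type and 0.42 in knockout, and Ifit2, Bst2 and Parp14 also had the larger SD in knockout. The spread differed widely between members. Of the 30, 6, namely Ddx58, Eif2ak2, Trim25, Stat2, Ifi44 and Rtp4, were in the tenth of all genes with the largest within-group SD, while Tap1 at 0.10 and Psmb9 at 0.13 were in the lower part.

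**Figure D4:**
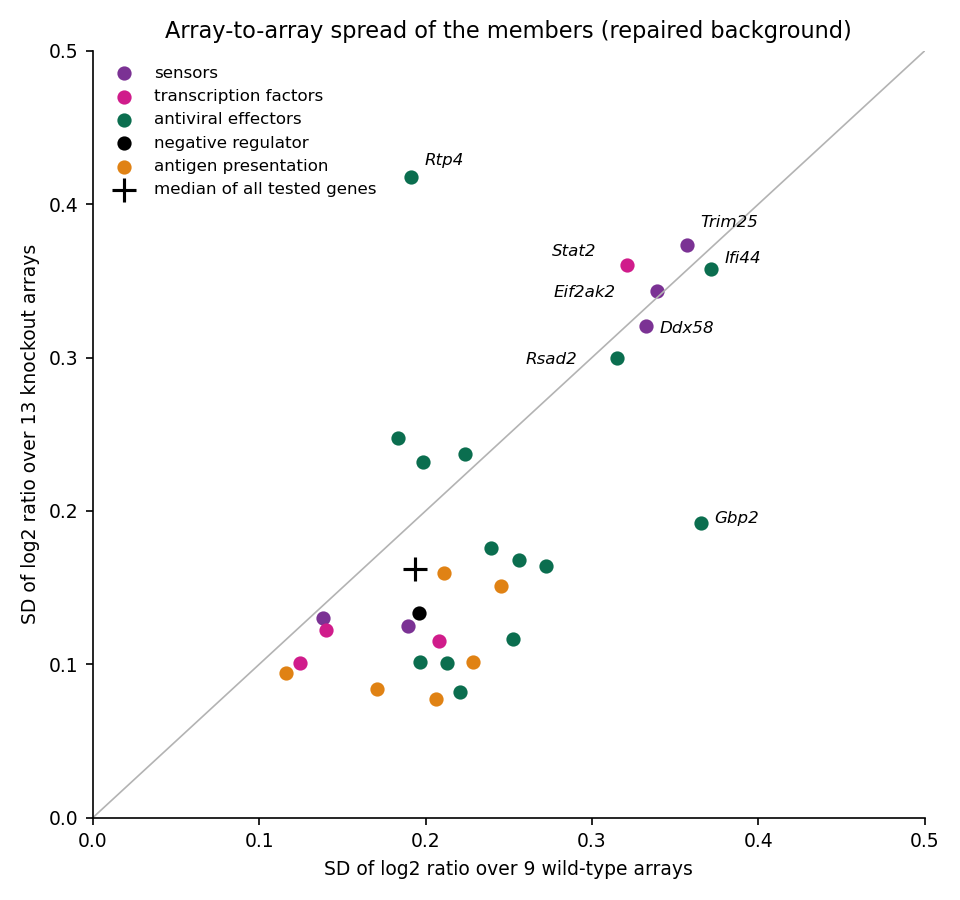
SD of the log2 ratio over 9 wild-type arrays (x axis) and over 13 knockout arrays (y axis) for the 30 tested members with the repaired background, coloured by role, with the line of equal SD and a cross at the medians of all tested genes (0.19 and 0.16). Members below the line varied more in wild type, Rtp4 stands above it, and Trim25, Stat2, Ifi44, Eif2ak2 and Ddx58 lie at the upper right.

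Members tended to be high or low together on an array. With the repaired background wild-type 4 had 27 of 30 members above their mean over the arrays (52.2% of all genes), wild-type 3 had 26 and wild-type 6 had 25. Wild-type 8 had 2 of 30 above it (41.98% of all genes), wild-type 2 had 3, knockout 10 had 2 and the array labelled knockout 1 had 4. The repaired slope of all genes was lowest on wild-type 4 (0.946) and wild-type 3 (0.965), and was 0.990 on wild-type 6. It was 1.033 on wild-type 2, 1.016 on wild-type 8 and 1.015 on knockout 10. Knockout 6, at 1.037, had 19 members above their mean. A slope below 1 raises genes that lie below the reference, as most members do. The part of the slopes in these shifts was not tested. Wild-type 4 was the highest array for 11 members and wild-type 3 for 7, which are 14.1% and 10.4% of all genes. Wild-type 8 was the lowest for 8 members (5.55% of all genes). Knockout 12 was the highest for 6 members, among them Eif2ak2 at 1.09, Rsad2 at -0.82, Bst2 at -3.72 and Rtp4 at -2.95, and the lowest for 3, among them Ddx58 at -2.17 and H2-D1 at -4.76. Leaving out wild-type 4 or wild-type 3 took the members' repaired median difference from -0.084 to -0.046 or -0.053, with 21 and 22 of 30 lower, and leaving out the array labelled knockout 1 took it to -0.072.

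Position on the slide was not balanced between genotypes. All 6 arrays at position 1 were wild type, position 2 had 3 arrays of each genotype, and the 6 arrays at position 3 and the 4 at position 4 were knockout. The arrays high for the members, wild-type 3, 4 and 6, were all at position 1, and 20 of 30 members had their highest value on a position 1 array (44.1% of all genes). Position 2 held wild-type 7, 8 and 9 and knockout 1, 2 and 3. Thus 1 of its 3 knockout arrays is the one whose Chsy1 value stood between the groups. Within position 2, where both corrections give the same values, Ddx58 differed by -0.069, H2-K1 by -0.093 and Rtp4 by 0.33. Outside position 2, genotype and position cannot be told apart. Within slides, each of which held both genotypes, the repaired median was -0.091 on slide 1, 0.12 on slide 2, -0.043 on slide 3, -0.41 on slide 4, -0.031 on slide 5 and -0.11 on slide 6. The value on slide 4 compares wild-type 4 alone with 3 knockout arrays. Under the planned correction slide 1 gave -0.40 and slide 3 gave 0.15, the slides that hold wild-type 1 and knockout 12.

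The rest of the pathway, from lists chosen by role, was compared in the same way. In each list 0 genes were called by limma under either correction (0.0215% of all genes under the planned one and 0.0322% with the repaired background). Of 10 ligands, 3 could be tested, and Ifnb1 and Ifng had Cy5 signal well above background on no array. Il15, a cytokine of lymphocyte survival, differed by -0.081 under the planned correction and -0.078 with the repaired background, and Ifna2 by -0.035 and -0.037. Of 11 receptors and kinases, 9 had a lower mean in knockout under both corrections. Under both, 1 had an unadjusted limma p under 0.05 (5.33% of all genes under the planned correction and 5.85% with the repaired background). That was Socs1, which blocks Janus kinases and had repaired means of 0.56 ± 0.14 (SD, n = 9) and 0.40 ± 0.17 (SD, n = 13), with a difference of -0.16 under both corrections (repaired interval -0.31 to -0.018, limma adjusted p = 0.80). Its relative Socs3 differed by -0.12 and -0.11.

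Of 22 other factors and upstream signalling genes tested, 14 were lower with the repaired background and 17 under the planned correction. The 2 with the smallest p with the repaired background were Zbp1, a sensor of Z-form nucleic acid, at -0.16, and Ciita, the master factor of class II genes, at -0.11. Under the planned correction they differed by -0.24 and -0.095. Of 32 other interferon-stimulated genes, 25 were lower with the repaired background and 29 under the planned correction. Their median differences were -0.076 and -0.14. An unadjusted limma p under 0.05 was seen for 7 with the repaired background (5.85% of all genes) and 6 under the planned correction (5.33% of all genes). Tgtp1, an interferon-inducible GTPase, differed by -0.19 (-0.35 to -0.033) and Ifi27l2a by -0.25 (-0.47 to -0.034), each with a limma adjusted p of 0.80, and under the planned correction they differed by -0.32 and -0.31. Of 16 other antigen presentation genes, 14 were lower under both corrections, with medians of -0.095 under the planned and -0.081 with the repaired one. They included Cd74, the class II invariant chain, at -0.19 (-0.39 to 0.0072) and Erap1, which trims peptides, at -0.12 (-0.25 to 0.0012) with the repaired background. Under the planned correction they differed by -0.25 (-0.45 to -0.058, limma adjusted p = 0.92) and -0.22 (-0.46 to 0.021).

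Forelimb RNA comes from many cell types, and in bulk samples fewer cells of a type and less RNA per cell cannot be told apart. Of 15 macrophage markers 14 were tested and 7 were lower in knockout, with a median difference of 0.013, and their mean deviation ran from -0.27 to 0.28 in wild-type and from -0.20 to 0.36 in knockout arrays with the repaired background. Of 11 lymphoid and dendritic markers 10 were tested and 8 were lower, with a median of -0.021 and mean deviations from -0.19 to 0.37 and from -0.15 to 0.20. Itgam and Siglech had Cy5 signal well above background on no array. All 7 cartilage markers were lower with the repaired background, with a median of -0.30, and 4 of them had an unadjusted p under 0.05 (5.85% of all genes). The planned correction gave 6 of 7 lower, a median of -0.22 and 0 at that p. Of 7 skeletal muscle markers, 7 were lower with a median of -0.17 and 4 at that p with the repaired background, and 6 were lower with a median of -0.15 and 1 at that p under the planned one. Endothelial markers were lower in 8 of 8 (median -0.095) with the repaired background and in 7 of 8 (median -0.029) under the planned one. Surface ectoderm markers were lower in 7 of 7 and 6 of 7, with medians of -0.12 and -0.10, and erythroid markers in 4 of 8 under both. Limb mesenchyme markers were higher in knockout in 5 of 8 under both corrections, with a repaired median of 0.097, and nerve markers in 5 of 6, with a repaired median of 0.055. In each of these lists 0 genes were called by limma (0.0215% of all genes under the planned correction and 0.0322% with the repaired background). Their part in the members' differences was not tested.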

How the data were processed

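Mouse forelimb RNA was read on 22 arrays. The authors quantified them with Agilent Feature Extraction, version 9.5 per the submitters' processing notes and 9.5.3.1 per the file headers. As deposited, the mean spot and local background columns are raw intensities, and the ratio column is a log10 of processed Cy5 over Cy3, per the file headers. The deposited flags are 0 or 1 (other values). The deposited value table held the same log10 ratios (difference 0 on every array, column medians 0).

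Intensities were corrected with normexp (offset 50), normalised by loess within arrays, and expressed as log2 ratios. Control and outlier spots were left out and spots of a probe averaged, giving 41174 probes, of which 27782 were well above background in Cy5 on at least 9 arrays. The brightest such probe stood for its gene. The repaired background differs only in setting local backgrounds above 200 units to the array median. Differences were fitted on all genes with limma 3.58.1 in R 4.3.3 (lmFit, eBayes, no covariates; Benjamini-Hochberg, threshold 0.05, 95% intervals). The fit was tested on simulated data. The number of arrays limits precision.

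The members and lists were chosen with earlier results of these data known. Every probed member is described. Ranges over arrays are given for the members with the 4 smallest unadjusted p, the 4 largest within-group SDs under the planned correction and the 4 highest Cy5 signals, and up to 2 genes with the smallest p are named from each other pathway list. Alternatives covered background correction, normalisation, the Cy5 channel alone, the value table, filters, probe averaging, blocks, weights and omissions. Same-numbered arrays of the 2 genotypes did not deviate together, with correlations from -0.31 to 0.49, so numbers were not taken as pairs.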

Additional observations from a re-analysis of the deposited data

Results flagged for a closer look

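An array was singled out where its gap to the nearest other wild-type array took a larger share of the range of the 9 wild-type arrays than Dixon's 95% critical value, which chance gives in about 1 in 20 groups. The test was applied to the 9 wild-type arrays only, and the 13 knockout arrays were not examined in this way. Under the planned correction 7 of 30 members met it and 15.6% of all genes did, each time for the members through wild-type 1 as the highest array. There Ifih1 read -0.62, Dhx58 -0.48, Irf7 -1.24, Oasl2 -1.57, Parp14 -1.73, Usp18 -3.03 and Tap1 -0.69. With the repaired background wild-type 1 was the highest wild-type array for 0 of these 7 genes, and 3 members met the test, as did 9.68% of all genes. Ifih1 on wild-type 8 was then the lowest at -2.21, and wild-type 4 was the highest for Psmb9 at -2.99 and for B2m at -3.09.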

How the results depend on the processing

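No member was called by limma under any alternative, with 0 to 7 of 30 at an unadjusted p under 0.05 (2 under the planned correction, with 994 of all 18637 genes; 7 without wild-type 8, with 1719; 5 with median centring, with 4098), and 7 of 30 members kept the sign of their difference under all 18 settings other than single omissions. Of 539 member values under these settings, 456 kept their sign and side of the threshold and 83 turned sign, and the cause was not tested. Scaling between arrays and a variance trend left the members' differences unchanged, so no sign could turn there. The filters on dim probes kept the members' median at -0.14. The value table repeats the scanner's log ratio, and position 2 alone repeats the differences of the position block. These counts therefore do not measure robustness. With slide position in the model as a block, and likewise on the 6 arrays of position 2, the members' median was 0.035 and the differences that turned sign were Ifih1 0.022, Eif2ak2 -0.00020, Trim25 0.049, Irf1 -0.077, Irf7 0.025, Ifit2 0.063, Isg15 0.079, Oasl2 0.056, Oas1a 0.042, Rsad2 0.058, Bst2 0.13, Ifitm3 0.043, Ifi35 0.054, Ifi44 0.059, Parp14 0.038, Usp18 0.10, Psmb8 0.0026, Psmb9 0.035, Tap1 0.035 and B2m 0.067. With the scanner's own log ratio, or the deposited value table, they were Dhx58 0.012, Irf9 0.037, Ifit2 0.0021, Rsad2 0.091, Mx2 0.17, Bst2 0.0030, Ifi44 0.053 and Parp14 0.077. With the Cy5 channel alone they were Ifih1 0.031, Dhx58 0.033, Irf7 0.033, Irf9 0.072, Oasl2 0.0028, Rsad2 0.080, Mx2 0.075, Ifi44 0.073, Parp14 0.093 and B2m 0.0058. With array weights they were Irf9 0.0021, Ifit2 0.0028, Rsad2 0.017, Parp14 0.00021 and B2m 0.030. Median centring moved the median of all genes by 0.24, and relative to it they were Irf9 0.050, Bst2 0.056, Ifitm3 0.026 and B2m 0.080. Without background correction they were Irf9 0.0016, Rsad2 0.022 and Mx2 0.029, with the repaired background Rsad2 0.0088 and Mx2 0.0036, without wild-type 1 and knockout 12 Irf9 0.020, and with the mean of all tested probes Irf1 -0.062.

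The count of genes called, 4 under the planned correction, was 1 with slide as a block, with position as a block, with the scanner's log ratio or value table, with median centring and without wild-type 1 and knockout 12. It was 2 at offset 0, 7 with array weights, 6 without background correction and with the repaired background, and 0 on the 6 arrays of position 2, where 436 genes had an unadjusted p under 0.05 by limma and fewer arrays entered. The members' median within-group SD, 0.27, was 0.17 with the Cy5 channel alone and 0.15 on the arrays of position 2. With the replicate block, the count of genes called was 1, Irf1 differed by -0.0079 and the members' median was -0.13. That block changed no member's call, and the numbers did not pair the arrays: 1 of 9 wild-type arrays correlated best with its own number. The repaired background gave 1 gene with the replicate block (members' median -0.066), 1 gene with position as a block (members' median 0.035) and 4 with slide as a block (-0.10). Leaving out single arrays moved the count of genes called from 2 (without wild-type 2, 5 or 6) to 6 (without wild-type 8), the members' median from -0.18 to -0.056, and their median SD from 0.21 to 0.27, the value nearest 0 and the lowest SD being those without wild-type 1. Of 660 member values under single omissions 15 turned sign. Irf1 then ran from -0.024 to 0.030, Eif2ak2 from -0.0024 to 0.11, Irf9 from -0.045 to 0.022, Ifit2 from -0.086 to 0.0086, Rsad2 from -0.11 to 0.018, Parp14 from -0.16 to 0.0074 and B2m from -0.058 to 0.030. The replicate block, the slide block, the filters, the scaling and the omissions were chosen as alternatives at the outset, whereas the repaired background, the arrays of position 2 and the joint omission were added after seeing the data. Dim probes limit these values: Ifi44, at a median of 94.1 Cy5 units, stands closer to background than Ifitm3 at 4379.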

Other observations

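The shift of the members on wild-type 1 was followed through the other ways of processing, after the median deviation of all genes on the array was taken off. The members' median deviation there was 0.69 with the planned correction, 0.80 with normexp at offset 0, 0.022 without background correction, 0.0044 with the scanner software's log ratio, 0.081 with the Cy5 channel alone and 0.041 with the repaired background. Genes far above the reference moved the other way on that array under the planned correction: the mean deviation was -1.0003 for 8 endothelial markers, -0.92 for 7 cartilage markers, -0.78 for 8 limb mesenchyme markers and -1.001 for 6 nerve markers, against 0.019, -0.042, -0.067 and -0.26 with the repaired background. In raw Cy5 units wild-type 1 lay within the range of the other 21 arrays for the members measured, with the exception of Ifitm3 at 6657 units against 2637 to 6041. In raw Cy3 units, the reference channel, wild-type 1 lay below the range of the other 21 arrays for 12 of 30 members, for example Irf7 at 424.2 units against 454.8 to 536.2 and B2m at 14370 against 15340 to 18800. Genes called by limma over the whole table numbered 4 under the planned correction and 6 with the repaired background, with no member among them.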
